A study of Mus musculus with 4 samples.

Results

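The complement genes of the MERFISH panel other than C4b were C1qa, C1qc, C3, C3ar1 and Itgam, which are 5 of the 383 genes counted. They were taken by name from the gene columns of the count data, and no threshold on a measured value was used. The panel also held the complement genes C1qb and C4b.

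Complement is a cascade of proteins that tags targets for removal. C1q, built from the products of C1qa, C1qb and C1qc, recognises targets and starts the classical pathway. Its activation leads to cleavage of C3, whose large fragment coats surfaces and whose small fragment, C3a, is sensed by the receptor encoded by C3ar1. Itgam encodes CD11b, the alpha chain of complement receptor 3, by which myeloid cells bind C3-coated material. In the brain, microglia are the known main producers of C1q and carry both receptors, and the system is known for its part in synapse removal.

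MERFISH, which images single mRNA molecules in tissue, was run on 4 coronal brain sections of 10 µm that held the striatum of both sides. Young 1 and Young 2 were from mice of 2 months and Aged 1 and Aged 2 from mice of 18 months, all wild-type C57BL/6NTac. The labels do not tie the sections to mice, and a legend of the study gives as many mice as sections for its MERFISH maps. The p-values measure the spread between these sections. All levels are transcripts of a gene per 10000 panel transcripts of the same cells, and since every gene has its own probes, ratios of genes are compared only between groups of cells, and a level set beside that of another gene is a description.

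Between 68011 and 74624 cells per section passed the filters on genes and volume. The kept cells held 18765491 to 36035355 transcripts per section, with a median per cell of 400 and 325 at 2 months and 215 and 293 at 18 months, so that the aged sections were the shallower. The complement genes are of low abundance in this panel, from 15364 transcripts of Itgam to 36718 of C3ar1 over all sections. Parts of some sections stood apart. A cluster without a name, with 923 of its 1138 cells in Young 1 and lying at the tissue edge, was high in C3 and in genes that healthy brain hardly expresses. In Aged 1, the dorsal tissue outside the striatum held 3.98 C3 transcripts per 10000 on the left and 2.41 on the right. Left and right are sides of each section as laid out here and need not be the anatomical ones. No cell barcode was shared between sections.

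Cells were grouped without using any complement gene and named from marker lists. The microglia-like cells carried 2682 to 3262 transcripts per 10000 of the 7 microglia markers, against 9.64 to 33.6 in the 6 other classes, although the classes were named from these lists. Between 54.3% and 63.8% of the microglia-like cells also held 3 or more markers of another class. These mixed cells were left out of the levels, which rest on 981, 1167, 1207 and 1165 cells in Young 1, Young 2, Aged 1 and Aged 2.

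These genes lie on 4 chromosomes, with C1qa and C1qc side by side. In GRCm38, C1qa spans chr4:136895917-136898803 and C1qc chr4:136889804-136893065, both on the minus strand and beside C1qb at chr4:136880129-136886187. C3 lies at chr17:57203970-57228136 on the minus strand, C3ar1 at chr6:122847138-122856161 on the minus strand and Itgam at chr7:128062640-128118491 on the plus strand. The promoters are shown because C1qc and Itgam moved together across cell classes while C3 did not, as described further on. Each runs 5′ to 3′ from 250 bases before to 50 after the RefSeq start in GRCm38.p6. The capitals mark GAGGAA or its reverse TTCCTC, the core of the site of PU.1, a factor of myeloid cells, searched on both strands. RefSeq entries were found for 4 of the 5 genes.
C1qc (chr4:136892865-136893164, minus strand): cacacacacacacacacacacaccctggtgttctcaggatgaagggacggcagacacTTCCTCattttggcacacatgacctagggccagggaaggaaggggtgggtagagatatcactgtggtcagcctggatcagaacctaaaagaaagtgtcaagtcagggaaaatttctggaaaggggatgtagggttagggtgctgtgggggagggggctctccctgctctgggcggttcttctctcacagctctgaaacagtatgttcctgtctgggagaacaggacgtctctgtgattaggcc
Itgam (chr7:128062390-128062689, plus strand): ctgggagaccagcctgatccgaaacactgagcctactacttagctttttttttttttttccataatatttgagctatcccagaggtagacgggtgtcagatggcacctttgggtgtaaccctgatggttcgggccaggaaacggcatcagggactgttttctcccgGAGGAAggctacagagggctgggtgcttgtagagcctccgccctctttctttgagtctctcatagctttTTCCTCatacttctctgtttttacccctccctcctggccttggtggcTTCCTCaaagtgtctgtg
C3ar1 (chr6:122856108-122856407, minus strand): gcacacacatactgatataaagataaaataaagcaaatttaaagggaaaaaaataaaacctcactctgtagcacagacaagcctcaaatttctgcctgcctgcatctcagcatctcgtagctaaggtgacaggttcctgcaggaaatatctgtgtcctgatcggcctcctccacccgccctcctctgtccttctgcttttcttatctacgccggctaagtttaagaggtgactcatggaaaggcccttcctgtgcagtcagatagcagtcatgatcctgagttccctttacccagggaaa
C3 (chr17:57228087-57228386, minus strand): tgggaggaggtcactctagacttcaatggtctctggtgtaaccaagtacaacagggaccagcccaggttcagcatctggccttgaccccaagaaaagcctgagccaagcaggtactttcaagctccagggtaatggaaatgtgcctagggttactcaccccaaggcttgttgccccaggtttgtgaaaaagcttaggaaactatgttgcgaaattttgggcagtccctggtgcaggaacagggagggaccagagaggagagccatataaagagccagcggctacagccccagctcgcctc
The motif occurred 3 times in the Itgam window, once in that of C1qc and in neither of the other two. It is common, being present in 9289 of 32851 promoter windows of that length (28.3%), and a match here is only a description of the letters.

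The first question was which cells hold each transcript. Among the 7 classes, C1qa, C1qc and Itgam stood high in microglia-like cells alone. A macrophage-like cluster within the vascular-like class also carried them, as given below. C1qa measured 81.0, 71.0, 60.0 and 82.1 transcripts per 10000 in the microglia-like cells of Young 1, Young 2, Aged 1 and Aged 2, and 0.218 to 2.63 in the 6 other classes. C1qc measured 113, 105, 88.5 and 98.6 in the same order, and 0.981 to 3.76 elsewhere. Itgam measured 39.0, 51.0, 46.3 and 43.5, and at most 2.36 in any other class. For these genes no section of any other class came near the lowest microglia-like section. As a mean of the 4 sections, microglia-like cells exceeded the next class, vascular-like cells, 31.0-fold ± 3.41 (SD, n = 4) for C1qa and 34.3-fold ± 4.56 for C1qc. For Itgam the next class was the small one of oligodendrocyte precursor (OPC)-like cells, and the lead was 32.5-fold ± 18.0. These are descriptions, as the classes were built from the same cells.

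C3ar1 was also highest in microglia-like cells, at 55.2, 52.3, 48.9 and 52.8. Spiny neuron-like cells, which carry the markers of the main projection neurons of the striatum, held 4.18, 4.25, 3.54 and 3.59, and other neuron-like cells 2.15, 2.97, 2.09 and 1.93. Vascular-like cells, which include a macrophage-like cluster, lay close to these, at 2.44 to 3.82. The lead of microglia-like over spiny neuron-like cells was 13.5-fold, and 6.51-fold when levels were taken per cell volume in place of per transcript.

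C3 had no microglial peak. It measured 2.28, 0.953, 1.92 and 1.67 in microglia-like cells, which is below every section's level in the other neuron-like cells (4.66, 3.40, 3.38 and 3.78). Its high levels lay in a small cluster within the astrocyte-like class, described below.

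**Figure D1:**
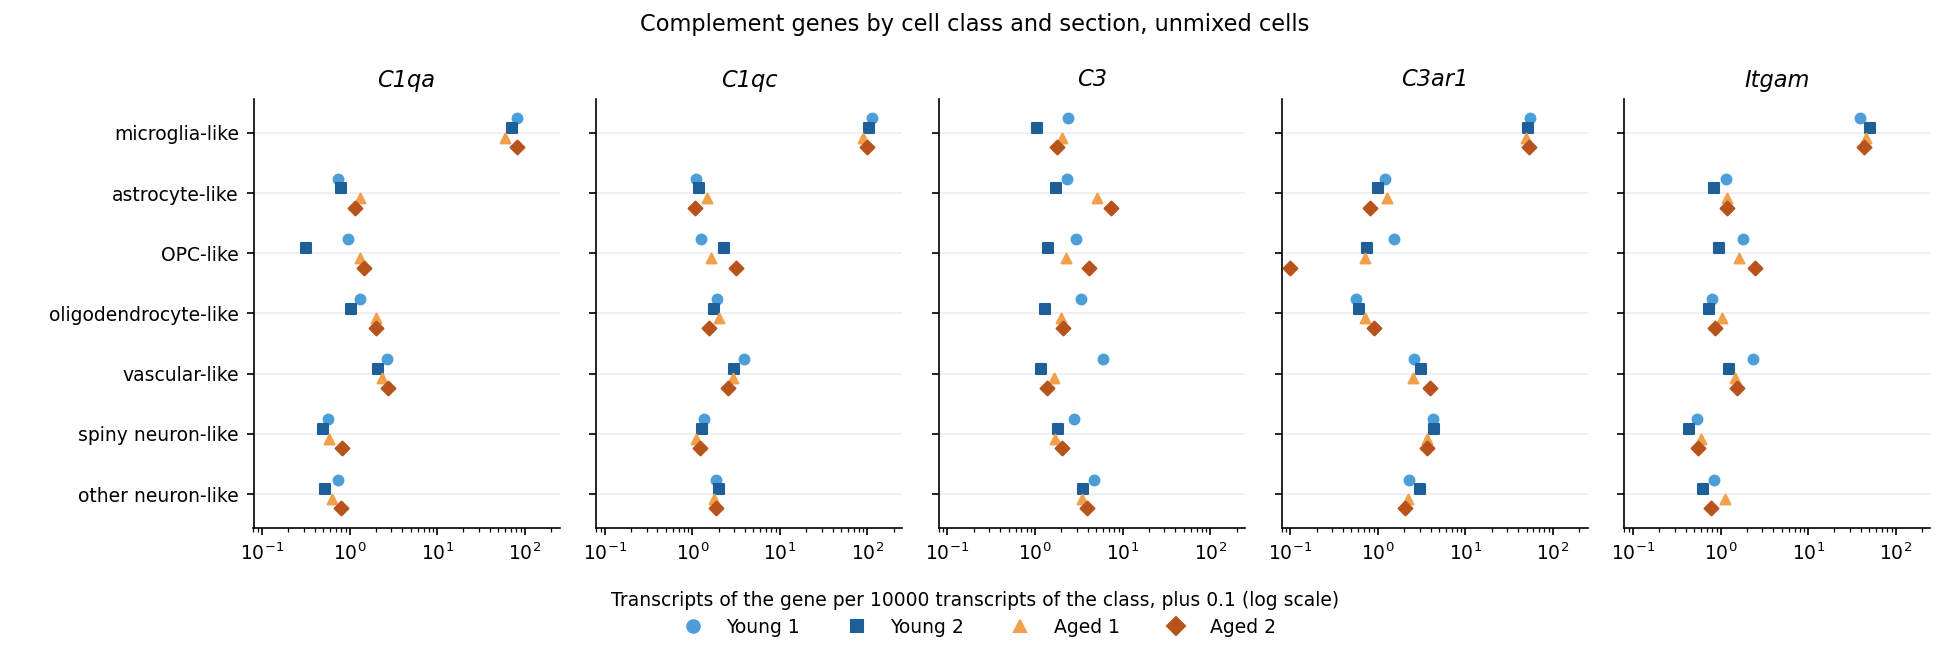
Levels of the 5 complement genes (transcripts per 10000 plus 0.1, log axis) in unmixed cells of 7 classes, 1 point per section. Of these classes, microglia-like cells alone stand high in C1qa, C1qc and Itgam. C3ar1 lies at 3.54 to 4.25 in spiny neuron-like cells, above all classes but microglia-like cells and the vascular-like cells of Aged 2. C3 is not high in microglia-like cells in any section.

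The shares of all transcripts depend on the number of cells as well. Microglia-like cells were 3.86% to 4.05% of the kept cells and held 2.50% to 2.73% of all transcripts. They held 47.2% to 53.5% of the C1qa transcripts, 41.8% to 44.4% of C1qc and 36.1% to 47.4% of Itgam. For C3ar1 the share was 18.5% to 24.0%, and for C3 it was 1.97% to 2.59%, below the class's share of cells. Spiny neuron-like cells held 41.6%, 29.6%, 31.5% and 30.6% of the C3ar1 transcripts of Young 1, Young 2, Aged 1 and Aged 2, beside 31.8%, 24.5%, 26.5% and 24.2% of all transcripts. Other neuron-like cells held 25.3%, 36.6%, 26.7% and 28.0% of C3ar1, in each section less than their share of all transcripts. Both of these large neuron classes held more of it than microglia-like cells. Most C3, between 51.6% and 63.2%, was counted in other neuron-like cells, which held 39.4% to 46.6% of all transcripts.

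Panel genes with the most similar pattern over the 28 combinations of 7 classes and 4 sections were found by Pearson correlation of log2 levels. For C1qa these were Csf1r, the receptor on which microglia depend, and the protease gene Ctss (both r = 0.973) and Laptm5 (0.970). For C1qc they were P2ry13 (0.979), Tmem119 (0.978) and Cx3cr1 (0.975), and Itgam was close to P2ry13 (0.969) and Laptm5 (0.968). C3ar1 followed Cd68 (0.914), Kctd12 (0.906) and Trem2 (0.90). The nearest to C3 were much less alike, namely Sirt3 (0.705), Rsph9 (0.640), a gene of motile cilia, and Tubb4b (0.604). Among the members, C1qa, C1qc and Itgam correlated at 0.957 to 0.966 with each other, C3ar1 with these at 0.731 to 0.801, and C3 with all at -0.319 to -0.199. The points share sections and depth, so the values describe and test nothing.

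In spiny neuron-like cells, C1qa, C1qc and C3ar1 were set against the distance from microglia. Among spiny neuron-like cells whose centre lay within 10 µm of a microglia-like cell, C1qc measured 3.05, 4.17, 3.67 and 3.19, and beyond 80 µm it measured 1.35, 1.19, 0.955 and 0.906. C1qa went from 1.53, 1.04, 0.734 and 1.77 to 0.466, 0.307, 0.438 and 0.572. Both were thus lower far from microglia-like cells in every section, as was Itgam, which lay between 0.316 and 0.494 there. C3ar1 measured 6.72, 5.22, 4.77 and 3.54 within 10 µm, and still 4.25, 4.13, 3.52 and 3.50 beyond 80 µm. It too was lower far away in every section, by a smaller proportion than C1qc, and its level there was about that of all spiny neuron-like cells, given above. Between 10 and 80 µm it lay within 3.44 and 4.39 in every section and distance band. In other neuron-like cells C1qc was at 2.82 to 3.85 within 10 µm and then, like C3ar1, kept close to its class level out to the farthest band, C1qc at 1.49, 1.89, 1.78 and 1.74 and C3ar1 at 2.30, 2.74, 1.96 and 1.97 beyond 80 µm. The class level of C1qc was 1.76, 1.94, 1.69 and 1.79. The floor gene Cxcl3, taken up below, measured 1.86, 1.35, 0.828 and 1.05 in that class. These values describe and were not tested.

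The ratios of these genes differed between classes. In microglia-like cells the ratio of C3ar1 to C1qa was 0.682, 0.736, 0.815 and 0.642, whereas in spiny neuron-like cells it was 8.85, 10.7, 7.31 and 4.93. The C1qc to C1qa ratio moved far less, from 1.20 to 1.48 in the first to 1.54 to 3.03 in the second. As a floor, 5 genes that healthy brain hardly expresses (Myh8, Mmp3, Mmp13, Cxcl3 and Il6) were counted in the same spiny neuron-like cells. The highest were Cxcl3, at 1.82, 0.962, 0.688 and 0.908, and Mmp3, at 1.48, 1.11, 1.08 and 1.08. C3ar1 exceeded both in every section, while C1qa and Itgam did not exceed Mmp3 in any and C1qc exceeded it in Young 2 and Aged 2. Cell by cell, after thinning to 150 transcripts, 6.04%, 5.97%, 4.98% and 5.23% of spiny neuron-like cells had a C3ar1 transcript, against 52.5%, 52.6%, 54.6% and 52.5% of microglia-like cells. Only cells with at least 150 transcripts enter these shares. They numbered 8704, 7826, 7383 and 7811 of the spiny neuron-like and 324, 312, 164 and 198 of the microglia-like cells. Without thinning the shares were 16.1%, 13.5%, 8.54% and 10.6% in spiny neuron-like cells and 40.8%, 35.6%, 27.5% and 31.2% in the shallower microglia-like cells, whose median depths were 101, 87, 64 and 71 transcripts against 377, 309, 214 and 266. In oligodendrocyte-like cells, taken as a class that should lack the gene, the thinned shares were 0.594% to 0.993% and the unthinned ones 0.732% to 1.25%, at median depths of 164, 139, 100 and 120.

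**Figure D2:**
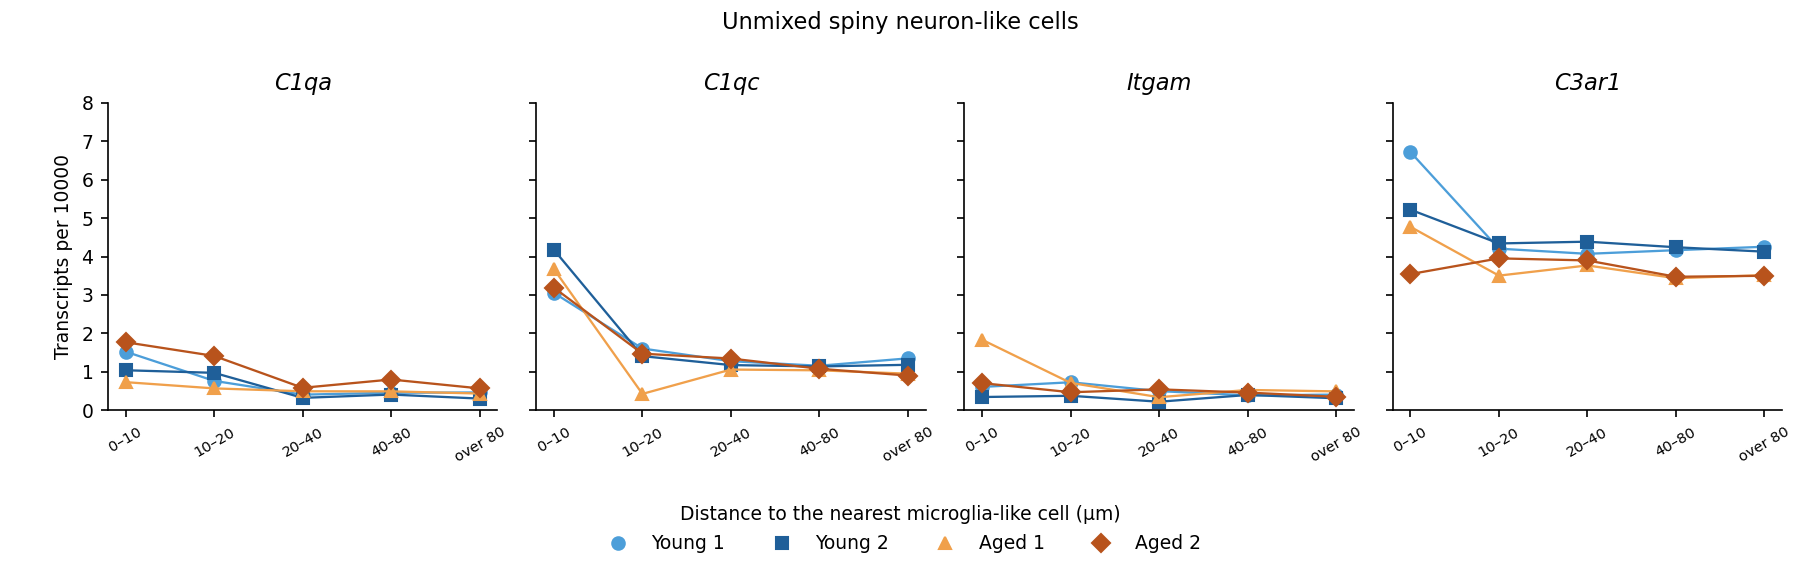
Levels of C3ar1, C1qa, C1qc and Itgam (transcripts per 10000) in spiny neuron-like cells by distance from the nearest microglia-like cell (µm), 1 line per section. C1qc and C1qa are lower beyond 80 µm than within 10 µm in all 4 sections, while C3ar1 stays between 3.50 and 4.25 in the farthest band.

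A macrophage-like cluster, led by Cd74, H2-Eb1 and Mrc1 and holding 269, 293, 238 and 250 cells, carried all the receptors and C1q at other proportions than microglia-like cells. C3ar1 measured 33.1, 32.2, 30.7 and 36.5 there, and C1qa 26.2, 26.3, 25.2 and 21.6. C1qc measured 33.9, 35.7, 29.2 and 25.6, and Itgam 7.16, 7.18, 4.27 and 5.21. The ratio of Itgam to C1qa was 0.273, 0.273, 0.169 and 0.241, against 0.481, 0.718, 0.772 and 0.530 in microglia-like cells, and the ranges did not overlap. The ratio of C3ar1 to C1qa was 1.26, 1.22, 1.22 and 1.69, higher than in any microglia-like section. No member was called with age in these cells by edgeR, where 0 of 347 genes were called (0%) and 32 had an unadjusted p under 0.05. The widest change was that of C3, which rested on 54 transcripts in all and measured 2.54 and 2.15 in the young and 1.07 and 1.42 in the aged sections (log2 -0.90, SE 0.45, adjusted p = 0.588 by edgeR). Itgam followed at -0.60 (SE 0.36, adjusted p = 0.655).

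The second question was what changed between 2 and 18 months. In microglia-like cells, edgeR called 0 of the 5 members, beside 7 of 332 genes tested (2.11%). C1qc was lower in both aged sections than in either young one, with a log2 change of -0.42 (SE 0.20, adjusted p = 0.217, and -0.83 to -0.02 as a range of 2 SE). C1qa changed by -0.29 (SE 0.21, adjusted p = 0.443), and its groups overlapped because Aged 2 had the highest level of all. C3ar1 changed by -0.29 (SE 0.21, adjusted p = 0.465) and Itgam by -0.21 (SE 0.22, adjusted p = 0.632). C3, sparse in these cells, changed by -0.05 (SE 0.48, adjusted p = 0.970). Decreases of C1qc to 0.83 on the log2 scale thus lie within its range, and the design cannot part them from no change.

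All 5 estimates were negative, with a median of -0.29 beside 0.00 for all genes tested, but other microglial genes lay there too. The 7 homeostatic genes had a median of -0.47 with 0 called, and the 11 phagocyte genes -0.43 with 0 called. Of 4 listed adaptor and receptor genes of myeloid cells, Tyrobp, Fcer1g, Trem2 and Fcgr1, 1 was called. This was Trem2, a receptor for lipids that signals through Tyrobp and is not itself a complement receptor. It fell from 71.8 and 53.4 to 34.0 and 41.6 (log2 -0.93, SE 0.22, adjusted p = 0.0054 by edgeR). That call held under 7 of 14 alternatives and was lost under the other 7, which were the replicate block (-0.93, adjusted p = 0.469), mixed cells kept (-0.60, adjusted p = 0.252), scaling by cell volume, a minimum of own markers, and leaving out Young 1 (-0.69, adjusted p = 0.471), Young 2 (-1.13, adjusted p = 0.385) or Aged 1 (-0.74, adjusted p = 0.0801). C1qb, the third chain of C1q, changed by -0.51 (SE 0.21, adjusted p = 0.154 by edgeR) and C4b by 0.57 (SE 0.43, adjusted p = 0.468 by edgeR). The level of the 7 microglia markers in the same cells was 3262 and 3163 in the young and 2682 and 2869 in the aged sections, and that of neuron markers 178 and 200 against 382 and 251. Per 1000 transcripts of the microglia markers, C1qc measured 34.5, 33.3, 33.0 and 34.4, so that its groups overlapped on that scale. C1qa measured 24.8, 22.5, 22.4 and 28.6 per 1000 marker transcripts, C3ar1 16.9, 16.5, 18.2 and 18.4, and Itgam 11.9, 16.1, 17.3 and 15.2. The part of neuronal transcripts in the changes was not tested. With mixed cells kept, the estimates were 0.04 for C1qa, -0.11 for C1qc, 0.09 for C3ar1 and 0.12 for Itgam, none of them called.

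No change in the number of microglia-like cells was detectable with 2 sections per age. Their density over the tissue was 79.8, 71.7, 70.5 and 76.0 cells per mm2 (two-sided exact permutation test, p = 0.667). Within the striatum it was 74.0 and 68.4 at 2 months and 61.8 and 60.5 at 18 months (exact permutation p = 0.333, which is the smallest that 2 sections against 2 can give). The groups did not overlap there, and the mean aged density was 0.858 times the young.

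In whole sections, where fewer cells of a type and less RNA per cell cannot be told apart, 0 of the 5 members were called beside 5 of 383 genes (1.31%). C1qa measured 1.90, 1.58, 1.85 and 2.05, C1qc 3.23, 3.12, 2.94 and 2.89, and Itgam 1.29, 1.21, 1.59 and 1.37. C3ar1 measured 3.29, 3.52, 3.02 and 2.84, and C3 3.70, 2.46, 2.64 and 3.16. The log2 changes ran from -0.18 for C3ar1 to 0.28 for Itgam, and OPC-like cells held too few transcripts of any member to be tested (4.08% of the genes tested there were called). Among the other classes, spiny neuron-like cells gave -0.23 for C3ar1 (SE 0.21, adjusted p = 0.800), although both aged sections lay below both young ones. That class had 0 of 383 genes called and 26 at an unadjusted p under 0.05. Oligodendrocyte-like cells gave C1qa 1.20 and 0.946 in the young and 1.91 and 1.89 in the aged sections (log2 0.76, adjusted p = 0.190, 3.43% of genes called), and astrocyte-like cells 0.631 and 0.706 against 1.22 and 1.07 (0.79, adjusted p = 0.218). Neither was called.

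The exception was C3 in a line of cells at the medial border of the striatum, where the lateral ventricle lies. A cluster of 270, 318, 250 and 288 cells, 0.365% to 0.449% of each section, lay there in 1 thin line per side, with a median of 9.06 to 9.68 µm between neighbours. It is called here by its leading gene, Rassf9, followed by Nnat, Tm4sf1, Dsg2 and Vim. The ependymal markers Rsph9, Nme9 and Riiad1, of ciliated cells that line ventricles, were each at least 1.5-fold higher in it, with a median of 10.4-fold. Against all other cells, none of them was among its top 10 genes, and Sox9, from the astrocyte list used here, was. Against the rest of the astrocyte-like class, Nme9 was among the top 10 and Sox9 was not. In the Rassf9-led cluster C3 measured 12.1 and 9.85 transcripts per 10000 in Young 1 and Young 2, and 68.7 and 111 in Aged 1 and Aged 2. Both aged sections lay far above both young ones.

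This is a log2 change of 3.04 (SE 0.22, 2.59 to 3.49 as a range of 2 SE), or 8.22-fold, by edgeR with an adjusted p of 5.71e-18 over the 278 genes tested in the cluster, where 27 (9.71%) were called. The p is small because edgeR pools the spread over genes, and it rests on 2 sections per age. The cluster was taken up after its C3 level had been seen, so every subcluster of the astrocyte-like, vascular-like and microglia-like classes with 100 cells per section was fitted. With p-values adjusted over all 7369 tests of gene and subcluster, of which 78 were called (1.06%), C3 in the Rassf9-led cluster had an adjusted p of 1.51e-16. C3 was called in 2 of the 19 subclusters where it was tested, and C1qa, C3ar1 and Itgam in 0 of 19 and C1qc in 0 of 22. The change was called under all 12 alternatives, at 2.56 to 3.29, and at 2.67 without Aged 2 (adjusted p = 1.18e-05).

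C3 had the largest change of the 27 genes called there. It was followed upward by Mag, Cldn11 and Snhg11 (2.80, 2.56 and 2.53), of which the first 2 are myelin genes and the third a neuronal RNA, and the immune gene H2-K1 also rose (1.21). The genes that fell included those of young neurons, Dlx6os1 (-1.48), Sox11 (-1.41) and Dcx (-1.25), and the cell-cycle gene Ccnd2 (-1.26). Among marker lists of other cell types, the neuroblast markers of the same cells summed to 197 and 227 transcripts per 10000 in the young and 71.4 and 96.2 in the aged sections, and 4 of 4 fell. The 6 oligodendrocyte markers summed to 28.2, 38.2, 54.8 and 40.9, with 2 of 5 tested called higher, and the 7 microglia markers to 21.3 and 22.4 in the young and more, up to 34.8, in the aged sections, with none of 4 tested called. The 3 ependymal markers, at 49.0, 51.8, 51.9 and 53.7, and the 7 astrocyte markers, at 1158, 1123, 1139 and 1186, had 0 and 1 gene called, the latter Plpp3, which fell. The 5 mural markers summed to 114, 124, 137 and 166, with 1 of 5 called higher, and the 7 medium spiny neuron markers to 38.4, 28.0, 46.0 and 45.1, with 1 of 4 tested called higher. The 5 oligodendrocyte precursor markers, at 92.1, 90.6, 72.3 and 64.1, were lower in the aged sections, with none of 2 tested called. The 6 markers of other neurons, which include Snhg11, summed to 128, 101, 114 and 84.4. Of these, Snhg11 was called higher and Stmn2 (-1.29) was called lower. The part of these lists in the change of C3 was not tested. With the mixed cells left out, C3 measured 14.6, 12.9, 65.6 and 116 in the 153, 205, 179 and 189 cells that remained, a log2 change of 2.80 (SE 0.29, adjusted p = 7.41e-18 by edgeR). Rassf9 itself measured 78.0, 91.7, 109 and 109, far less of a change than that of C3. The level of the 5 floor genes there was at most 1.06 in any section. Of the other members, C1qc changed by 0.03 (adjusted p = 0.978) and Itgam by 0.74 (SE 0.58, adjusted p = 0.474), while C1qa and C3ar1 were too low in the cluster to be tested.

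The rise was seen in many cells. A C3 transcript was found in 23.7% and 17.3% of the cells in the young and in 54.0% and 69.1% in the aged sections, which had the lower median depth (254 and 208 against 160 and 183 transcripts). After thinning to 150 transcripts, which left 183, 212, 137 and 169 cells, the shares were 15.5%, 11.9%, 54.2% and 65.8%. In spiny neuron-like cells, taken as the background, the thinned shares were 3.91%, 2.58%, 2.38% and 2.86%, and the unthinned ones 3.95% to 11.1%. Cells with 5 or more C3 transcripts numbered 2, 2, 18 and 56, and the highest count in a single cell was 7, 7, 10 and 26. The cluster held 0.773% and 1.11% of all C3 of the young sections and 6.65% and 8.08% of that of the aged ones, with at most 0.277% of all transcripts.

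Both sides and all parts of the wall shared the change. On the left, C3 measured 9.33, 7.93, 60.1 and 89.3, and on the right 14.6, 12.2, 78.2 and 133. Left is here the side of the larger striatal area of a section, measured without its rim, and need not be the anatomical left. The side of the smaller area had more in all 4 sections. In the ventral part of the wall, cut into 3 parts of equal cell number, the level was 11.9, 8.64, 83.3 and 162, which in both aged sections was the highest of the 3 parts per 10000 transcripts. Per cell, the dorsal part of Aged 1 held more (1.55 against 1.31 transcripts).

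**Figure D3:**
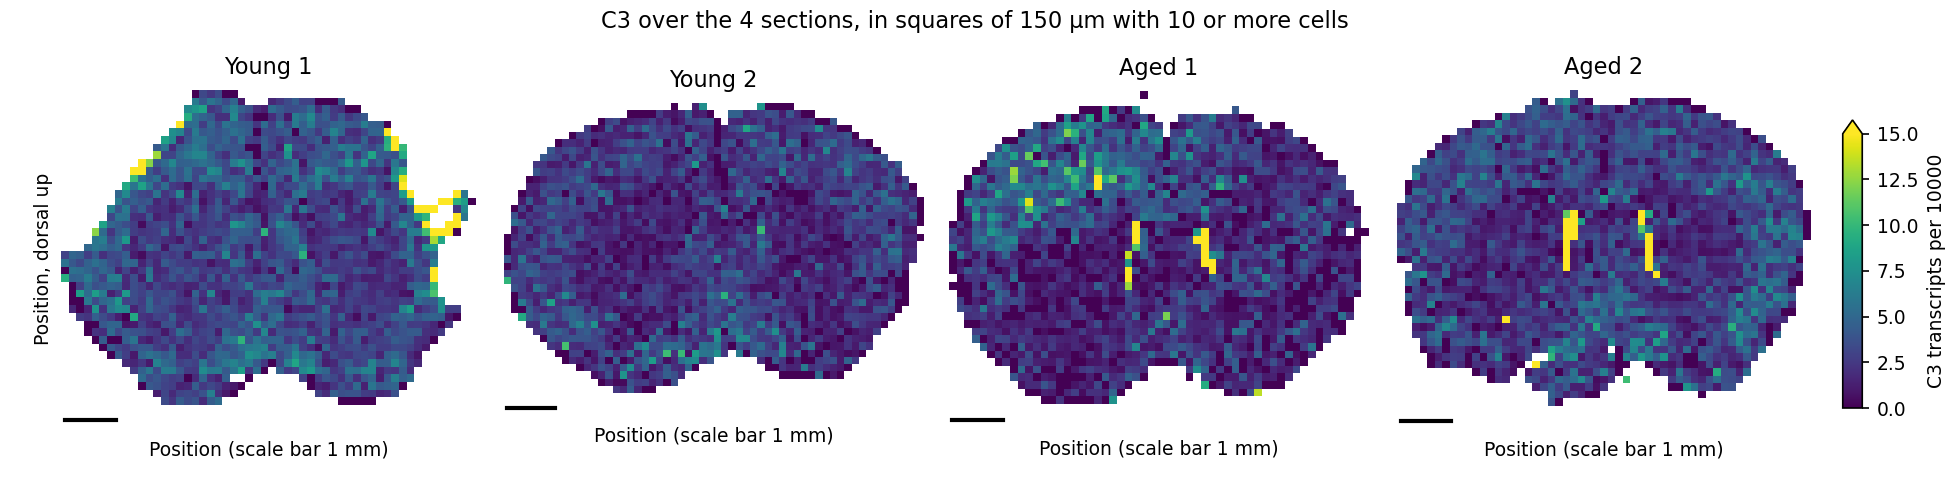
C3 level (transcripts per 10000) in squares of 150 µm with at least 10 cells in each section, dorsal up, with a scale bar of 1 mm and colours cut at 15. In both aged sections 2 lines of high C3 lie at the medial walls of the striata, Aged 1 also shows a patch at the upper left, and the squares above 15 in Young 1 lie at the tissue edge.

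The difference between this cluster and other cells was tested directly. With each section as a block, the change of C3 with age exceeded that of the astrocyte-like cells outside this and the neuroblast-like cluster by 2.77 on the log2 scale (SE 0.30, adjusted p = 0.00138 by edgeR, 3.67% of 381 genes called). It exceeded that of all cells outside this and the unnamed C3-high cluster by 3.08 (SE 0.26, adjusted p = 9.7e-15, 6.79% of 383 genes called). Leaving out 1 section took the first above 0.05 without Young 2 (2.89, adjusted p = 0.0851) and the second without Aged 1 (3.41, adjusted p = 0.0654), with no loss in size.

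In the aged sections C3 was also higher in other cells within 25 µm of this line than in any band beyond. Other cells within 25 µm of the Rassf9-led cluster held 3.67, 2.02, 14.1 and 14.9 transcripts of C3 per 10000, and at 25 to 50 µm 2.03, 2.01, 0.172 and 1.46. Rassf9, which marks the cluster, behaved alike in the same cells, at 5.78, 6.84, 15.5 and 9.91 within 25 µm and 2.03, 1.23, 1.20 and 1.58 beyond. The neuroblast-like cluster, led by Top2a, Sox4 and Sox11 and holding 678, 732, 175 and 216 cells, had C3 at 3.69, 1.86, 13.7 and 12.8 (log2 2.17, SE 0.40, adjusted p = 0.0234, 4.55% of 308 genes called). Within 25 µm of the Rassf9-led cluster its C3 level was 5.48, 2.08, 30.7 and 20.8, and beyond 400 µm it was 3.09, 1.28, 2.45 and 4.37. With mixed cells left out, the levels were 4.16, 1.48, 6.52 and 1.28 and the change 0.39 (adjusted p = 0.906). Neuroblast-like cells were 0.997% and 1.03% of the young and 0.256% and 0.289% of the aged sections.

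**Figure D4:**
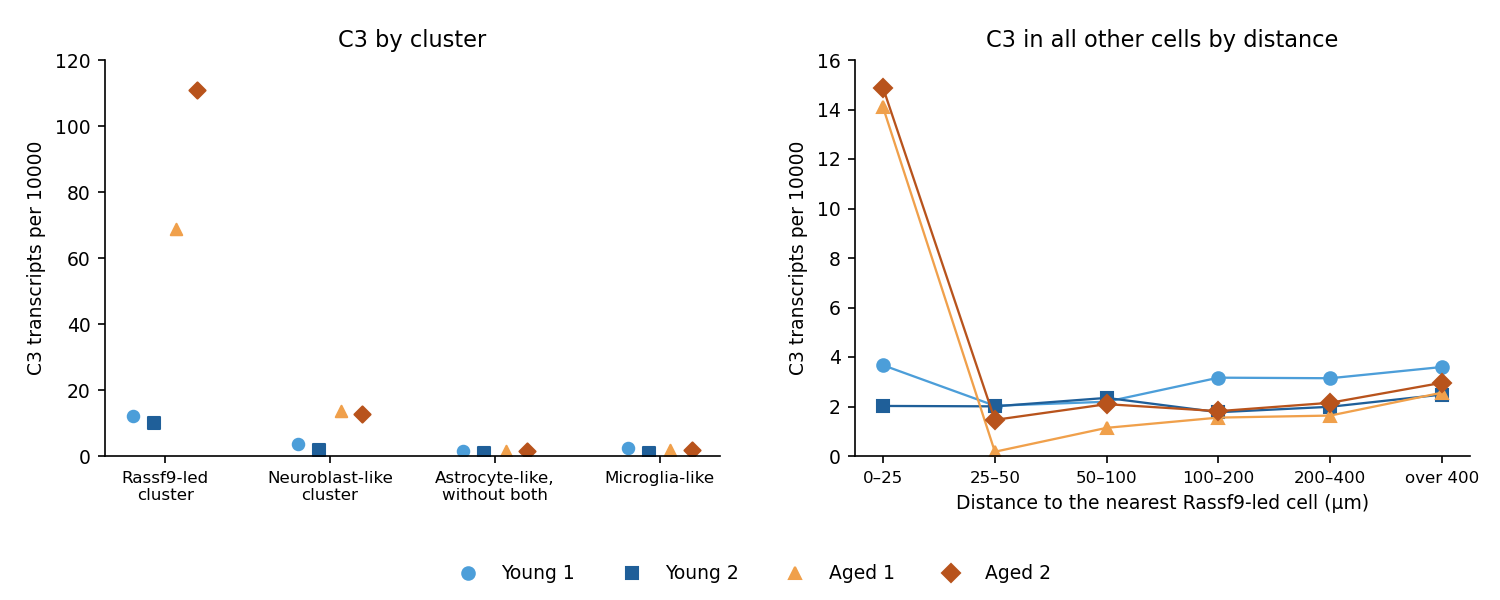
C3 level (transcripts per 10000) by section in 4 groups of cells (left) and in all other cells by distance from the nearest cell of the Rassf9-led cluster in µm (right). The cluster measures 12.1 and 9.85 in the young and 68.7 and 111 in the aged sections, and other cells within 25 µm measure 14.1 and 14.9 in the aged sections, against 3.67 and 2.02 in the young.

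The call of C3 in the astrocyte-like class as a whole rested on this site. In that class C3 measured 2.22 and 1.64 in the young and 4.98 and 7.37 in the aged sections, and was called (log2 1.69, SE 0.28, adjusted p = 0.00332), beside 14 of 376 genes (3.72%). Without the Rassf9-led and neuroblast-like clusters, the levels were 1.40, 0.909, 1.55 and 1.44 and the change 0.35 (SE 0.32, adjusted p = 0.756). The call on the class was also lost without Young 1 (1.93, adjusted p = 0.101) and without Young 2 (1.47, adjusted p = 0.141).

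In vascular-like cells, C3 at 5.92, 1.06, 1.53 and 1.28 reflected 1 section. Without the unnamed cluster of Young 1's edges, which had 19.9 C3 transcripts per 10000 in that section, the levels were 1.36, 1.06, 1.42 and 1.16. That cluster was also high in Mmp13 (10.7), Cxcl3 (9.94) and Mmp3 (6.53), genes of the floor list. The change with age of the class was -1.19 (SE 0.63, adjusted p = 0.976, 0 of 383 genes called and 5 at an unadjusted p under 0.05), and 0.12 without that cluster. With Young 2 left out the change was -1.92, but then Young 1, which held most of that cluster, was the only young section. In other neuron-like cells C3 was above the floor gene Cxcl3 (1.86, 1.35, 0.828 and 1.05) in each section, and 0 of 383 genes were called with age there (19 at an unadjusted p under 0.05).

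The last question was position. White matter was taken as places where oligodendrocyte-like cells make up at least 40% of cells within 100 µm, which left 48, 47, 114 and 99 microglia-like cells in it and 4212 in grey matter. C1qc measured 123, 125, 112 and 123 in white and 112, 104, 86.0 and 95.9 in grey matter, and was higher in white matter within each section. The log2 difference was 0.31 (SE 0.14, adjusted p = 0.0808), and 0 of 5 members were called although 75 of 309 genes (24.3%) were. C1qa measured 74.5, 64.0, 74.7 and 105 in white and 81.4, 71.4, 58.4 and 79.7 in grey matter, lower in white matter in the young sections and higher in the aged ones. The difference of these changes, 0.61, was not called (SE 0.28, adjusted p = 0.795, 0.971% of genes called), nor was that of any other member. Itgam measured 43.3, 62.4, 64.5 and 42.7 in white and 38.7, 50.4, 44.3 and 43.6 in grey matter (log2 0.28, SE 0.16, adjusted p = 0.217). C3ar1 measured 65.0, 48.4, 56.3 and 57.0 in white and 54.6, 52.5, 48.1 and 52.3 in grey matter, a difference of 0.15.

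Of 10 phagocyte genes tested 2 were called higher in white matter, Cd84 (0.53) and Lyz2 (1.43), and of 7 homeostatic genes 1 was called lower, Siglech (-0.55), both shares below the 24.3% of all genes by edgeR. Leaving out Aged 1 ended all 3 of these calls, with adjusted p of 0.0731, 0.252 and 0.111, leaving out Young 2 that of Cd84 (adjusted p = 0.226), and leaving out Young 1 (adjusted p = 0.068), keeping mixed cells (log2 -0.02) or using DESeq2 (adjusted p = 0.0612) that of Siglech. With mixed cells kept, 3 of the 5 members were called higher in white matter, namely C1qa (0.53, adjusted p = 0.0161), C1qc (0.56, adjusted p = 0.00729) and Itgam (0.50, adjusted p = 0.0156). Over all panel genes, 174 were called with mixed cells kept, against the 75 given above, so calls were frequent there and not particular to these members. In that setting the microglia markers of the same cells also differed, at 1580, 1674, 1716 and 1422 transcripts per 10000 in white and 1508, 1459, 1478 and 1261 in grey matter. Their part in the difference was not tested.

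Within the striatum, the dorsal and ventral parts held 703 and 607 unmixed microglia-like cells. C1qc measured 121, 112, 118 and 109 dorsally and 110, 109, 92.6 and 107 ventrally, higher dorsally in every section, with a log2 difference of 0.19 (SE 0.10, adjusted p = 0.287). C1qa differed by 0.13, C3ar1 by 0.09 and Itgam by -0.01, and C3 was too sparse to be tested. None of the 4 members tested was called, beside 11 of 186 genes (5.91%), and none differed in its change with age between dorsal and ventral (0.538% of genes called). With the outer parts of the axis alone, C1qc was called at 0.40 (SE 0.14, adjusted p = 0.0483).

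**Figure D5:**
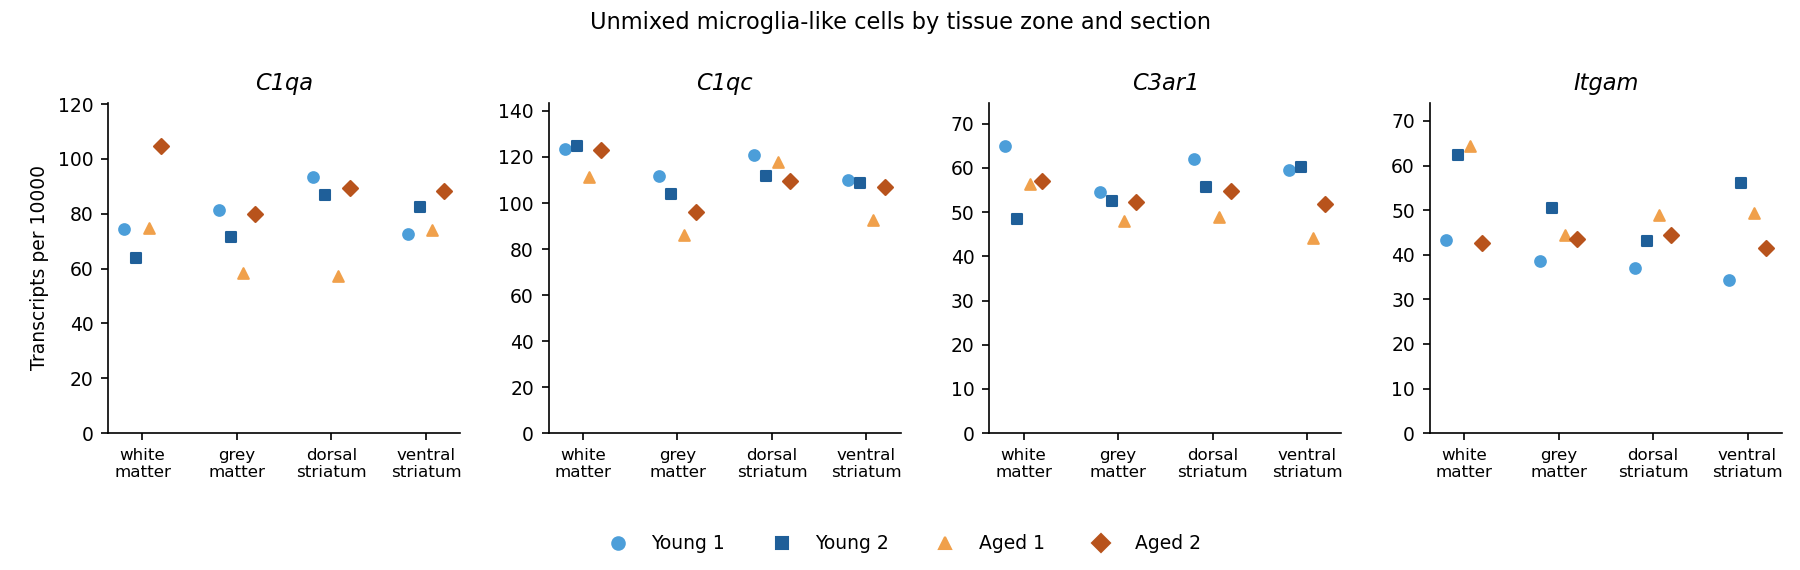
Levels of C1qa, C1qc, C3ar1 and Itgam (transcripts per 10000) in unmixed microglia-like cells of white and grey matter and of dorsal and ventral striatum, 1 point per section. C1qc is higher in white than in grey matter and in dorsal than in ventral striatum in all 4 sections, and the other genes differ in direction between sections.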

How the data were processed

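The authors hybridized a custom probe library to 10 µm frozen sections, decoded transcripts with MERLIN 0.1.6 and segmented cells with Vizgen software. The deposited counts are whole transcripts of 383 genes per cell, without normalization. Cell volume, an imaging signal deposited by the authors, and cell position were used as given. All columns of counts were mapped to a section, numbered as in the sample titles.

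Cells with fewer than 10 genes or under 50 µm³ were dropped, which is the study's own rule. Values were scaled to 10000 per cell, log-transformed and clustered (Louvain, igraph 0.11.9, 15 principal components, 20 neighbours, resolution 0.08) without any complement gene. The classes were clustered again at 0.3. Clusters were named from lists of 3 to 7 markers, with at least 3 markers 1.5-fold above other cells. By this rule the unnamed cluster scored as macrophage (median 3.62-fold) and the Rassf9-led cluster as ependymal (10.4-fold). Those 2 names were not used. Cells with 3 or more markers of their own and of another class were called mixed and left out of class levels, but kept in subclusters. Names are rebuilt and doublets were treated by this rule alone. The striatum was taken where spiny neuron-like cells were at least 40% within 150 µm.

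Counts were summed per section, and ages compared with edgeR 4.0.16 (quasi-likelihood test after TMM and filterByExpr, adjusted after Benjamini-Hochberg and called under 0.05; R 4.3.3), for classes with at least 200 cells per section. Zones were compared with the section as a block. DESeq2 1.42.0 and limma 3.58.1 were alternatives. Python 3.11.15, numpy 2.4.6, scipy 1.17.1 and scikit-learn 1.9.0 served for the rest. The scripts were tested on simulated counts. The genes named are the 5 members, the other complement genes, the myeloid adaptor and receptor genes, homeostatic, phagocyte and floor lists, and the 3 genes nearest each member in pattern. Some items that this rule names are not reported here. Genes of the Rassf9-led cluster were named after their values were seen. The members and lists were chosen with earlier results of these data known. Coordinates are from GENCODE vM21 (GRCm38).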

Additional observations from a re-analysis of the deposited data

Results flagged for a closer look

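C3 was picked out because its change with age differed between groups of cells. The change in the Rassf9-led cluster exceeded that in all cells outside it and the unnamed cluster by 3.08 on the log2 scale, and that in astrocyte-like cells outside it and the neuroblast-like cluster by 2.77, both by the interaction term of edgeR with the section as a block. It rested on 2 sections per age. No group held 4 or more samples, so no sample was tested for standing apart from its group.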

How the results depend on the processing

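Of 875 values of single members recomputed under alternatives, 861 kept their side of the threshold, 8 lost a call and 6 gained one. No called value turned direction, and 67 of the 861 changed sign without a call on either side. The C3 change in the Rassf9-led cluster was called under every alternative run, and the alternatives on subclusters, on the unnamed cluster and on the crossed numbers were chosen after seeing the data. In the astrocyte-like class it was 0.43 at a clustering resolution of 0.3 and 0.35 without both clusters, with 0 members called in each, and leaving out 1 section gave 1.39 to 1.93 and 0 to 1 members called. With 1 section left out, the difference of that change from cells outside this and the unnamed cluster ran from 2.76 to 3.41, and from astrocyte-like cells outside this and the neuroblast-like cluster from 2.34 to 3.18. In vascular-like cells the C3 change ran from -1.92 without Young 2 to 0.40 without Young 1.

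In microglia-like cells 3 members were called between white and grey matter with mixed cells kept, where 174 panel genes were called. Between dorsal and ventral striatum 1 member was called with the outer parts alone. In the neuroblast-like cluster 0 were called with mixed cells left out. With mixed cells left out, spiny neuron-like cells held 47.8% of C3ar1 (mean of sections), and microglia-like cells 54.1% of C1qa and 44.1% of C1qc. The ratio of C3ar1 to C1qa in spiny neuron-like cells was 4.65 with mixed cells kept, and the lead of microglia-like over spiny neuron-like cells in C3ar1 6.51 per cell volume. The cause was not tested. Scaling by cell volume moved the median of all genes by -0.27 to -0.58 between the ages.

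Sections with the same replicate number did not deviate together (r = -0.27 over 383 genes). With 2 sections per age this cannot decide whether sections were paired. The numbers are those of the sample titles, and the header lines of both young sections carry others. With the replicate block, the C3 change in the Rassf9-led cluster was still called (adjusted p = 2.27e-33), that in the neuroblast-like cluster was 2.22 and no longer called (0 members), and the genes called in microglia-like cells went from 7 to 0. With the numbers crossed as a block, 1 member and 43 genes were called there.

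The genes called with age ranged over the alternatives from 0 to 43 in microglia-like, 0 to 38 in astrocyte-like, 1 to 35 in oligodendrocyte-like, 0 to 23 in OPC-like and 0 to 60 in vascular-like cells, from 9 to 29 in the Rassf9-led and 1 to 28 in the neuroblast-like cluster, and from 0 to 6 in whole sections. For zones they ranged from 49 to 174 (white matter) and 2 to 41 (dorsal). Depth limits C3 in microglia-like cells, which rested on few transcripts.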

Other observations

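Some C3 lay outside the comparisons. In squares of 150 µm with at least 10 cells, the C3 level exceeded 15 transcripts per 10000 in 24 of 1558 squares of Young 1, 0 of 1828 of Young 2, 15 of 1716 of Aged 1 and 21 of 1800 of Aged 2. The highest square measured 101, 10.6, 41.5 and 54.8.

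In the dorsal left tissue of Aged 1 outside the striatum, C3 measured 3.98 against 2.41 on the right. The summed floor genes measured 3.57 on the left and 2.53 on the right in those cells, and the median depth was 201 and 215 transcripts. In Young 1, Young 2 and Aged 2, C3 measured 4.06 and 3.89, 2.46 and 2.74, and 3.08 and 3.23 on the left and right. The sides were not matched between sections. The part of this patch in the results was not tested.

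C1qb, the third chain of C1q, measured 87.1, 79.0, 57.4 and 76.5 in microglia-like cells, and its ratio to C1qa was 1.08, 1.11, 0.956 and 0.932.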
